A study of Homo sapiens with 52 samples.

Results

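SUM159PT cells that carried the NRP1-directed hairpin shNRP1#5 were compared with SUM159PT cells that carried the non-targeting hairpin shNT. The 6 samples, 3 of each group, are 6 of the 52 samples of a bulk RNA-seq series on neuropilin-1 (NRP1) knockdown. They were taken by their labels from the gene-level count table, and no measured value was used to choose them. SUM159PT is an established triple-negative breast cancer cell line of the claudin-low subtype, and the series also holds the claudin-low lines MDA-MB-231 and HS578T. Each line was given 1 of 2 NRP1-directed sequences (#3 or #5) or a non-targeting (NT) control, either as short interfering RNA (siRNA) or as short hairpin RNA (shRNA).

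All 6 samples came from cells transduced with a pLKO.1 lentivirus and selected with puromycin, so that both groups carry the vector and the selection marker. RNA was harvested 48 h after the selected cells had been seeded. The replicates of a group were consecutive passages of the transduced cells. P-values therefore measure the spread between passages, and the effect of the hairpin cannot be told apart from a property of the transduced population. SUM159PT siNRP1#5 (2 samples) and siNT (3 samples) were harvested 72 h after transfection with 20 nM siRNA. MDA-MB-231 and HS578T shNRP1#5 and shNT (3 samples each) were prepared in the same manner as the SUM159PT hairpin samples, as was SUM159PT shNRP1#3 (3 samples), whose hairpin is directed at transmembrane NRP1 alone.

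NRP1 is a cell surface co-receptor that binds class 3 semaphorins together with plexins and binds vascular endothelial growth factors (VEGFs) together with their receptor tyrosine kinases. It exists as a transmembrane form and as shorter soluble forms made from other transcripts of the gene. A hairpin is processed into a small RNA duplex, of which the guide strand is loaded into an Argonaute protein and directs cleavage of transcripts that pair with it along its length. A guide strand can also lower transcripts that pair with its seed (bases 2 to 8 from the 5′ end) alone, mainly through the 3′ untranslated region (3′ UTR), which is how natural microRNAs act.

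The 19 bases that shNRP1#5 is directed at, and their complement, are shown because the target and the seed of the complement recur in the results below. The siRNA siNRP1#5 is directed at the same bases. Both were read from the main transmembrane transcript of NRP1 in the reference annotation, in which the 7 bases in capitals occur once. Sequences are written 5′ to 3′, and the capitals mark bases 2 to 8 of the complement and the 7 bases of the target that pair with them.
NRP1 target site: cagccttgaatGCACTTAt
complement of the site: aUAAGUGCauucaaggcug
The site lies on the minus strand of chromosome 10 at chr10:33263779-33263797 (GRCh38), in exon 4 of the 17 exons of that transcript, inside the coding sequence, at its positions 792 to 810. It is present in 9 of the 14 NRP1 transcripts of the annotation. The exact 5′ end of the strand processed from the hairpin is not given in the sources used here.

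The following human microRNAs are shown because their seeds share 6 bases with the seed of the complement. Of 2370 mature human microRNAs in RefSeq, 15 carry at positions 2 to 7 the same 6 bases as positions 3 to 8 of the complement, namely miR-302a to e, miR-372, miR-373, miR-519a to c and miR-520a to e. In miR-302a to e, 5 microRNAs, bases 1 to 7 also equal bases 2 to 8 of the complement. Capitals mark bases 2 to 8 of each microRNA.
hsa-miR-302a-3p: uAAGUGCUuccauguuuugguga
hsa-miR-372-3p: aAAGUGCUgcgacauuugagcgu
hsa-miR-373-3p: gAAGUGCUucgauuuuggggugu

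The following stretches of 3′ UTR are shown because they hold the 7 bases of the target that pair with the seed. All are from genes whose transcripts were lower with shNRP1#5. The 3′ UTRs of LUM and MMP13, reported below as higher with shNRP1#5, also hold 1 match each and are not printed. Capitals mark GCACTTA.
TGFBR2, first of 2 matches: ttcccctGCACTTAtgttact
TGFBR2, second match: gtctcaaGCACTTAtttttat
RTN1, first of 2 matches: gtcgaccGCACTTAtggtaat
ITGB4: ttgttctGCACTTAataaatg
MCM7: ccatgctGCACTTActccttt
AGO1, first of 2 matches: cactatgGCACTTAgctttga
In GRCh38 they lie at chr3:30692504-30692524 and chr3:30694016-30694036 on the plus strand (TGFBR2), chr14:59596225-59596245 on the minus strand (RTN1), chr17:75757783-75757803 on the plus strand (ITGB4), chr7:100092808-100092828 on the minus strand (MCM7) and chr1:35920315-35920335 on the plus strand (AGO1).

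The 6 samples held 39922411 to 62014725 expected counts, and 25710 to 28217 genes were detected in each. Claudin and cadherin genes by which the subtype is defined were low, with CLDN3, CLDN7 and CDH1 at 0.0392, 0.266 and 0.0716 CPM (counts per 1e6 counts, scaled with TMM factors) and VIM at 6676 CPM in the shNT group. ERBB2 was present at 104.0 CPM, whereas ESR1 and PGR were at 0.0547 and 0.0055 CPM. The shNRP1#5 samples were less alike than the shNT samples. Pearson's r of log2 CPM across genes was 0.9737 to 0.9782 within shNRP1#5 and 0.9781 to 0.9865 within shNT, and shNRP1#5 replicate 3 was closer to shNT replicate 3 (r = 0.9755) than to its own group's replicates 1 (0.9737) and 2 (0.9749). Marker genes of the other lines had medians near 0: 55 genes that mark MDA-MB-231 and are low in the SUM159PT controls had a median of 0.0739 to 1.06% of their MDA-MB-231 level in shNRP1#5 and of 0.06 to 0.176% in shNT, and 62 marker genes of HS578T had 0.0895 to 0.204% and 0.0376 to 0.0784%. Of these 55 and 62 genes 7 and 9 were called, beside 5.94% of all genes tested. In shNRP1#5 replicates 1, 2 and 3, 2, 8 and 3 of the MDA-MB-231 markers and 5, 5 and 2 of the HS578T markers reached 1 CPM, against 0 in every shNT sample. The part of these markers in the results was not tested.

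The targeted gene was measured first. NRP1 was at 53.03, 41.76 and 49.51 CPM in the 3 shNRP1#5 samples and at 271.7, 236.9 and 203.3 CPM in the 3 shNT samples. Every shNRP1#5 sample was below every shNT sample. NRP1 fell 4.93-fold (log2 fold change −2.30, SE 0.31, adjusted p = 0.000305, edgeR quasi-likelihood test). NRP1 stayed past the threshold when each of the 6 samples was left out in turn, with log2 fold changes between −2.40 and −2.19.

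Both forms of NRP1 were lower. The 4 transmembrane transcripts summed to 12.3, 9.58 and 10.3 TPM (transcripts per 1e6 transcripts) in shNRP1#5 and to 51.3, 47.2 and 41.8 TPM in shNT, a mean of 10.7 ± 1.38 against 46.8 ± 4.76 TPM (SD, n = 3), or 22.9% of the control. The 5 soluble transcripts summed to 2.89, 0.49 and 2.64 TPM against 17.3, 15.7 and 7.48 TPM, a mean of 2.01 ± 1.32 against 13.5 ± 5.26 TPM (SD, n = 3), or 14.9%. Neither pair of groups overlapped. With 3 against 3 samples an exact permutation test cannot give a two-sided p below 0.1, and no test was planned or run on these sums. The 5 NRP1 transcripts without the target site were lower as well, at 4.57 ± 3.0 against 24.1 ± 7.64 TPM (19%). The split of reads between overlapping transcripts is an estimate, and the main transmembrane transcript made up 54.3 ± 10.9% of the gene's transcripts in shNRP1#5 and 47.7 ± 4.2% in shNT (SD, n = 3).

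**Figure D1:**
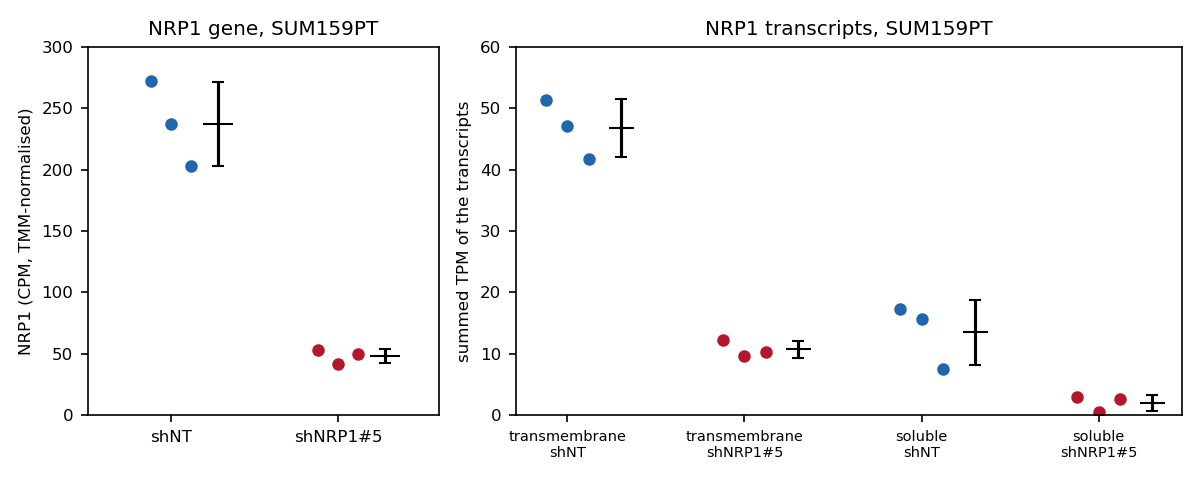
NRP1 in SUM159PT samples, as TMM-normalised CPM of the gene (left, y axis) and as summed TPM of the transmembrane and soluble transcripts (right, y axis); points are samples, and the bars give the mean ± SD of 3 samples. All shNRP1#5 points lie below all shNT points, at 41.76 to 53.03 against 203.3 to 271.7 CPM for the gene.

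Among all 20067 genes tested, 1192 (5.94%) changed with shNRP1#5 at an adjusted p under 0.05, of which 651 (3.24%) were higher and 541 (2.7%) were lower than in shNT. The median log2 fold change over all genes was 0.027. Fitted log2 fold changes were above 1 in 606 of the higher genes and below −1 in 393 of the lower genes. The higher genes included 521 protein-coding genes and 123 long non-coding RNAs, the lower genes 513 and 25. The sample values of the groups did not overlap for 1165 of the 1192 genes, against 27% of all genes tested. Leaving out single samples changed the count to 721 (without shNRP1#5 replicate 1), 464 (without shNRP1#5 replicate 2), 1221 (without shNRP1#5 replicate 3), 521 (without shNT replicate 1), 632 (without shNT replicate 2) and 739 (without shNT replicate 3).

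By the rule for named genes, called genes with groups that did not overlap and at least 5 CPM in the higher group, the 12 largest rises were in genes that were almost silent in the control. A mean under 1 CPM in shNT went with a mean of at least 5 CPM in shNRP1#5 for 36 called genes, and the reverse was seen for 6. LIN28A, an RNA-binding protein of early development that blocks maturation of the let-7 microRNAs, had 14.7, 20.4 and 11.3 CPM in shNRP1#5 and 0 counts in every shNT sample, which with a floor of 3 counts over the group is at least 840-fold higher. SPSB4, a substrate adaptor of a ubiquitin ligase, had 50.3, 63.5 and 27.8 CPM against 0.0206, 0 and 0.0165 CPM. The control values of SPSB4 rest on 2 counts, and the ratio of the summed counts, scaled for depth, was 3850 with a 95% counting interval of 1070 to 31800. For both genes the 3 shNRP1#5 samples were all high and the 3 shNT samples all at or near 0. MGAT4C, of the N-acetylglucosaminyltransferase IV family, had 18.5, 13.5 and 3.77 CPM in shNRP1#5 and 3 counts in all of shNT (ratio 647, interval 221 to 3140). CNTFR, the receptor chain that binds ciliary neurotrophic factor, had 16.4, 5.24 and 2.5 CPM and 3 counts in shNT (ratio 424, interval 145 to 2060). In MGAT4C and CNTFR replicate 3 was the lowest of the shNRP1#5 samples and still above every control. These intervals cover counting error only.

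COL1A2, a chain of type I collagen, had 89.1, 60.2 and 43 CPM in shNRP1#5 and 0.267, 0.101 and 0.215 CPM in shNT (log2 fold change 8.34, SE 0.72, adjusted p = 1.3e-05). POSTN, the matrix protein periostin, had 94.7, 52.9 and 45.5 CPM against 0.144, 0.584 and 1.42 CPM (6.46, SE 0.77, adjusted p = 0.000167). In both genes every shNRP1#5 sample was above 40 CPM and every control sample below 2. WNT10A, a secreted Wnt ligand, had 66.7, 59.8 and 19.6 CPM against 0.988, 1.05 and 0.314 CPM (5.97, SE 0.59, adjusted p = 4.05e-05). ADAMTS4, a protease that cleaves aggrecan, had 8.58, 4.85 and 2.17 CPM against 0.0823, 0.0604 and 0 CPM (6.76, SE 1.29, adjusted p = 0.00529). Replicate 3 was again the lowest of the shNRP1#5 samples for both, above the controls as the rule for named genes required. Without shNT replicate 3 the log2 fold change of POSTN was 7.45, and that of ADAMTS4, which had 7 counts in shNT, was 6.14, or 7.41 without shNT replicate 1.

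KCNH2, the hERG potassium channel, had 46.5, 29.5 and 12 CPM in shNRP1#5 against 0.103, 0.161 and 0.0165 CPM (log2 fold change 8.30, adjusted p = 4.04e-05). UCA1, a long non-coding RNA first named in bladder cancer, had 14.3, 57.4 and 20.5 CPM against 0.165, 0 and 0.281 CPM (7.63, adjusted p = 0.000277). CDH10, a cadherin of the nervous system, had 13.6, 4.21 and 1.6 CPM against 0.103, 0 and 0.116 CPM (6.39, adjusted p = 0.00529). No shNRP1#5 sample of these genes overlapped with a control sample, as the rule for named genes required. ALPP, placental alkaline phosphatase, had 2.69, 12.6 and 4.69 CPM against 0.123, 0.0604 and 0 CPM (6.77, adjusted p = 0.00145), and its reads are uncertain because near-identical alkaline phosphatase genes can share them. Single samples moved these folds by over 1.5 times. Log2 fold changes were 8.96 for KCNH2 without shNT replicate 2, 6.81 and 8.51 for UCA1 without shNRP1#5 replicate 2 and shNT replicate 3, 5.24 for CDH10 without shNRP1#5 replicate 1, and 5.91, 7.77 and 6.14 for ALPP without shNRP1#5 replicate 2, shNT replicate 1 and shNT replicate 3. CDH10 and ALPP had 12 and 9 counts in shNT, so that their fitted folds are imprecise.

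The 12 largest falls under the same rule, which sets their control level at 5 CPM or more, ranged from a log2 fold change of −3.66 to one of −2.75. TGFBR2, the type II receptor that starts transforming growth factor β (TGF-β) signalling, had 41.1, 23.9 and 35 CPM in shNRP1#5 and 303, 290 and 229 CPM in shNT (log2 fold change −3.04, SE 0.29, adjusted p = 2.23e-05). RTN1, a reticulon of the endoplasmic reticulum, had 4.4, 2.44 and 2.91 CPM against 29.5, 34.7 and 17.9 CPM (−3.07, SE 0.35, adjusted p = 9.5e-05). Both genes, with 3′ UTR matches printed above, were lower in each shNRP1#5 sample than in any control, as the rule required. CA9, a hypoxia-induced carbonic anhydrase, had 0.814, 0.94 and 0.906 CPM against 9.28, 16.9 and 7.72 CPM (−3.66, SE 0.57, adjusted p = 0.00116). PIK3AP1, an adaptor of phosphoinositide 3-kinase, had 1.28, 0.62 and 0.572 CPM against 8.68, 8.66 and 2.88 CPM (−3.03, SE 0.49, adjusted p = 0.00157), and its 3′ UTR also holds 2 matches. SEPTIN3, a cytoskeletal GTPase, had 0.638, 0.282 and 1 CPM against 7.92, 7.17 and 5.54 CPM (−3.43, SE 0.54, adjusted p = 0.0012).

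CD74, the invariant chain of MHC class II, had 3.08, 3.16 and 0.572 CPM in shNRP1#5 against 21.2, 32.9 and 28.8 CPM (log2 fold change −3.60, adjusted p = 0.00172). CIITA, the transcriptional coactivator of the class II genes, had 0.881, 0.583 and 0.167 CPM against 4.44, 9.09 and 2.33 CPM (−3.27, adjusted p = 0.00245). CD68, a lysosomal protein best known from macrophages, had 0.886, 0.49 and 0.615 CPM against 5.93, 10.4 and 4.25 CPM (−3.37, adjusted p = 0.00095). All 3 genes were lower in every shNRP1#5 sample than in any control sample, as the rule for named genes required. Without shNT replicate 2 the log2 fold change of CIITA was −2.62. The 4 further falls depended on single samples. NOX5, an NADPH oxidase, fell by 3.00 on the log2 scale (adjusted p = 0.0648 without shNRP1#5 replicate 2, and a fall by 3.66 without replicate 1), CEMIP, a hyaluronan-binding protein, by 2.94 (lost without any of 3 samples, highest adjusted p = 0.108 without shNRP1#5 replicate 2), OASL by 2.83 (lost without either of 2 samples, highest adjusted p = 0.0785 without shNT replicate 2) and KCNF1, a potassium channel subunit, by 2.75 (lost without any of 3 samples, highest adjusted p = 0.0777 without shNRP1#5 replicate 2). OASL fell by 3.48 without shNRP1#5 replicate 1 and 2.07 without shNT replicate 2, and KCNF1 by 3.72 without shNRP1#5 replicate 3.

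**Figure D2:**
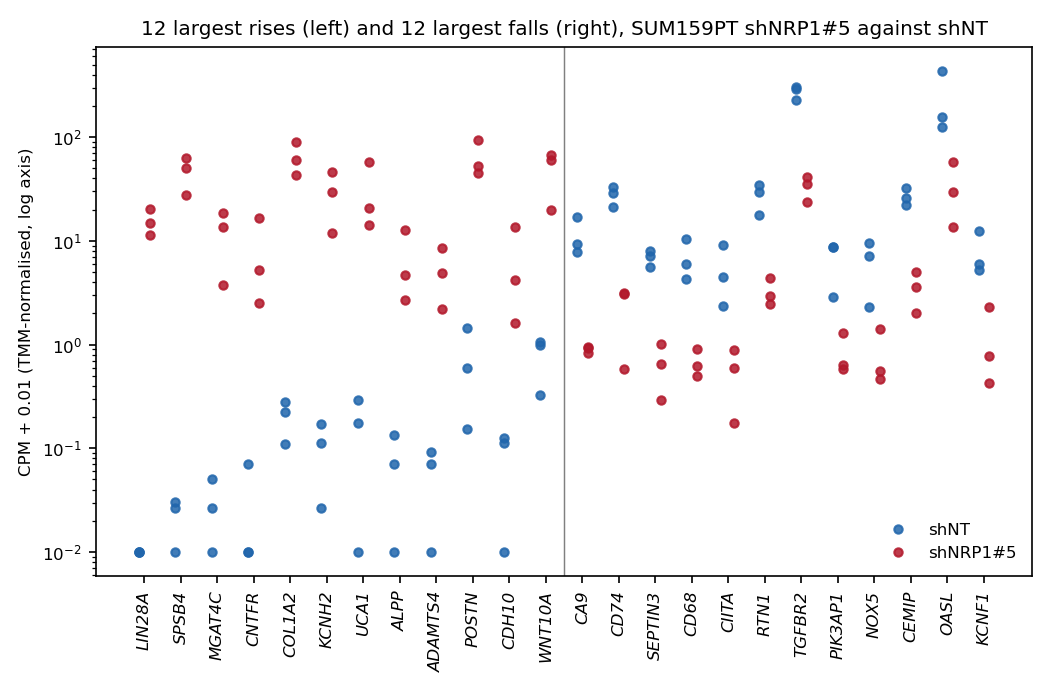
CPM of the 12 genes with the largest rises and the 12 with the largest falls in SUM159PT shNRP1#5 (red) against shNT (blue), 1 point per sample, on a log axis with 0.01 added to each value. The groups do not overlap for any of the 24 genes, since this was part of the rule that named them, and the controls of the rising genes lie near the bottom of the axis.

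The semaphorin and VEGF axis of NRP1 held called genes in both directions. Of 20 members tested, 5 were higher and 3 lower (40% called, beside 5.94% of all genes), with a median log2 fold change of 0.37. NRP1 itself, the target of the hairpin, is counted among the 3 lower members and in the 40%. The count of 8 was 3 without shNRP1#5 replicate 2 or shNT replicate 1 and 12 with no filter on low counts. Among the ligands, SEMA3D had 6.65, 4.87 and 9.25 CPM in shNRP1#5 against 0.432, 0.584 and 0.43 CPM (log2 fold change 3.84, adjusted p = 0.000959). SEMA3E had 1.1, 1.04 and 1.51 CPM against 0.0842, 0.0604 and 0.119 CPM (3.77, adjusted p = 0.00285). SEMA3A, the founding class 3 semaphorin, had 107, 69.8 and 45.7 CPM against 24.2, 21.1 and 27.1 CPM (1.61, SE 0.40, adjusted p = 0.0234). All 3 semaphorins were higher in every shNRP1#5 sample than in any control. PGF, a VEGF family ligand, rose by 2.65 (109, 54.7 and 22 against 8.87, 16.1 and 4.49 CPM), but this call was lost without any of 4 samples (highest adjusted p = 0.147 and a log2 fold change of 1.97, without shNRP1#5 replicate 1). VEGFC, best known as a lymphatic growth factor, was at 57.6, 70.1 and 51.4 CPM against 31, 23.7 and 37.9 CPM (0.95, adjusted p = 0.0303). SEMA3A, VEGFC and the receptor PLXNA1 lie outside the rule for named genes and were chosen after their values were seen.

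Among the receptors, NRP2, the paralogue of NRP1, had 5.24, 6.03 and 10.7 CPM in shNRP1#5 against 21.9, 17.9 and 23.8 CPM in shNT. No sample overlapped, and NRP2 fell by 1.53 on the log2 scale (SE 0.36, adjusted p = 0.0179). The call of NRP2 was lost without any of 4 samples, with the highest adjusted p, 0.103, without shNRP1#5 replicate 2. PLXNA1, a plexin that signals with NRP1, had 238, 118 and 185 CPM against 356, 423 and 260 CPM (−0.94, SE 0.25, adjusted p = 0.0357) and was the last of the 3 lower members. PLXND1, the plexin that binds SEMA3E, was at 189, 85.8 and 97.5 CPM against 37.8, 79.7 and 33.2 CPM, without overlap, and did not pass the threshold (adjusted p = 0.129). The VEGF receptor genes FLT1 and KDR were at or near 0 in all 6 samples and were not tested.

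In growth factor genes, 2 of 20 were higher and 1 lower (median log2 fold change −0.35), beside 3.24% higher and 2.7% lower among all genes. Here 2 were called without shNRP1#5 replicate 1 or 2 or shNT replicate 3, and 5 with no filter. PDGFB, a chain of platelet-derived growth factor, had 2.44, 10.5 and 10.2 CPM in shNRP1#5 against 0.885, 0.302 and 0.165 CPM (4.11, adjusted p = 0.00301). HBEGF, a ligand of the epidermal growth factor receptor, had 20.4, 55.9 and 57.3 CPM against 9.05, 5.64 and 14.1 CPM (2.21, adjusted p = 0.00808). For both ligands replicate 1 was the lowest shNRP1#5 sample and was above every control. The log2 fold change of PDGFB was 5.04 without shNT replicate 1. EREG, another ligand of that receptor, fell by 2.29, a call lost without any of 3 samples (highest adjusted p = 0.124, with a fall by 1.53, without shNT replicate 3, and a fall by 2.92 without shNRP1#5 replicate 3). Of 17 genes that report mitogen-activated protein kinase output, 1 was higher and 2 were lower (median −0.49), with 7 called with no filter and 2 without shNRP1#5 replicate 2 or any shNT replicate. The 2 lower genes were the ETS factors ETV1, with 35.7, 10.3 and 20 CPM against 69.4, 68.9 and 63.5 CPM (−1.61, adjusted p = 0.0102), and ETV5, with 22.5, 11.7 and 25.9 CPM against 55.7, 50.8 and 48 CPM (−1.36, adjusted p = 0.00332). The phosphatase gene DUSP5 rose by 1.07, a call lost without any of 5 samples (highest adjusted p = 0.149, without shNRP1#5 replicate 2).

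Of 16 epithelial genes 3 were higher and 1 was lower (25% called, beside 5.94% of all genes, median log2 fold change 1.33). There were 2 calls without shNRP1#5 replicate 2 or shNT replicate 3, and 8 with no filter on low counts. CLDN4, a tight junction claudin that is low in this subtype by definition, had 26.1, 34.3 and 17.9 CPM in shNRP1#5 against 1.42, 1.79 and 1.47 CPM (4.06, SE 0.42, adjusted p = 4.37e-05). CLDN1 had 21.3, 37.1 and 20.9 CPM against 3.79, 4.78 and 3.42 CPM (2.73, adjusted p = 0.0031). Both claudins were higher in each shNRP1#5 sample than in any control sample. OCLN (occludin) rose by 1.54 and the keratin gene KRT14 fell by 3.28, calls lost without any of 5 samples (highest adjusted p = 0.18, without shNRP1#5 replicate 2) and of 4 samples (highest adjusted p = 0.194, with a fall by 1.93, without shNT replicate 3). In 15 mesenchymal and stem-like genes 1 was higher and 1 lower (13.3% called, median 0.015). SPARC, a collagen-binding matrix protein, was at 1640, 1900 and 1570 CPM in shNRP1#5 against 802, 771 and 987 CPM and rose by 1.00, a call lost without any of 3 samples (highest adjusted p = 0.0584, without shNT replicate 1). ALDH1A3, an aldehyde dehydrogenase used as a stem cell marker, had 3.13, 3.68 and 3.84 CPM against 8.92, 7.88 and 18.1 CPM (−1.71, adjusted p = 0.00585). VIM was at 5260, 5700 and 6980 CPM against 6790, 5090 and 8150 CPM, and the groups overlapped.

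Of 22 collagen and matrix genes 5 were higher and none lower (22.7% called, beside 5.94% of all genes, median log2 fold change 0.55). The count stayed at 5 without any single sample and was 10 with no filter. Besides COL1A2 and POSTN they were COL1A1, LOX and LUM. COL1A1, which pairs with COL1A2 in type I collagen and was chosen after its values were seen, had 764, 578 and 1080 CPM in shNRP1#5 against 168, 249 and 342 CPM (1.67, SE 0.33, adjusted p = 0.00538). LOX, which cross-links collagen, had 6.96, 5.96 and 3.27 CPM against 0.802, 1.31 and 0.958 CPM (2.40, adjusted p = 0.00198). LUM, the proteoglycan lumican, had 2.86, 0.771 and 0.119 CPM with a single count in shNT (ratio 199, counting interval 35.2 to 7890). These genes were higher in every shNRP1#5 sample than in any control. The larger fold of COL1A2 than of COL1A1 went with a much lower control level, at most 0.267 CPM against at least 168 CPM.

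Proteases and their inhibitors gave 4 higher and 1 lower of 16 (31.2% called, beside 5.94% of all genes, median log2 fold change 0.41). There were 2 calls without shNRP1#5 replicate 2 or shNT replicate 1 or 2, and 9 with no filter. TIMP1, an inhibitor of matrix metalloproteinases, had 299, 312 and 357 CPM in shNRP1#5 against 1030, 992 and 974 CPM (−1.63, SE 0.20, adjusted p = 0.000182). MMP13, a collagenase, had 1.63, 3.51 and 1.74 CPM against 0.185, 0.121 and 0.0661 CPM (4.21, adjusted p = 0.00551). The TIMP1 samples of each group lay close together and far from those of the other group. MMP9 rose by 3.78 and ADAMTS1 by 2.16, and each call was lost without any of 4 samples (highest adjusted p = 0.0566 for MMP9 and 0.138 for ADAMTS1, both without shNT replicate 1), and the rise of ADAMTS1 was 2.97 without shNT replicate 3. MMP9 had 9 counts in shNT. The remaining higher gene was SERPINE2. In integrins and laminins 1 of 18 was higher and 2 were lower (16.7% called, median 0.12). LAMA4, a laminin chain, had 19.8, 6.86 and 6.61 CPM against 0.597, 1.97 and 1.16 CPM (3.15, adjusted p = 0.00444, and 2.44 without shNRP1#5 replicate 1). LAMA3, a chain of laminin-332, had 15.9, 12.4 and 22.1 CPM against 38.6, 37.9 and 36.1 CPM (−1.16, adjusted p = 0.0058). ITGB4, the integrin chain that binds that laminin and 1 of the genes with a printed match, had 20.1, 8.93 and 4.58 CPM against 61.9, 81.5 and 30.8 CPM (−2.37), a call lost without any of 4 samples (highest adjusted p = 0.105, without shNRP1#5 replicate 2), with a log2 fold change of −3.10 without shNRP1#5 replicate 1.

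Interferon-stimulated genes were lower or not called. Of 25 tested, none was higher and 5 were lower (20% called, beside 2.7% of all genes called lower), with a median log2 fold change of −0.67, and 23 of the 25 had a negative value. The count was 2 without shNRP1#5 replicate 2 or shNT replicate 2 and 10 with no filter. OAS2, which senses double-stranded RNA, had 6.93, 2.99 and 2.55 CPM in shNRP1#5 against 21.2, 29.4 and 13.5 CPM (−2.36, adjusted p = 0.00411). MX2, an antiviral GTPase, had 2.93, 1.09 and 1.86 CPM against 8.91, 11.7 and 6.2 CPM (−2.19, adjusted p = 0.00305). OASL, of the same family as OAS2, had 58, 13.5 and 29.4 CPM against 157, 433 and 126 CPM. The groups of these 3 genes did not overlap. ISG20, an exonuclease, fell by 1.58 (adjusted p = 0.0187), and OAS1 fell by 1.92, a call lost without any of 4 samples (highest adjusted p = 0.104, without shNRP1#5 replicate 2). The more abundant ISG15 did not pass, at 67.9, 54.2 and 66.8 CPM against 66.6, 94.5 and 73.9 CPM, nor did IFIT1, at 37.5, 26.7 and 21.6 CPM against 43.4, 62.4 and 46.1 CPM.

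MHC class I genes, whose products present peptides on the cell surface, gave 5 lower and none higher of 15 (33.3% called, beside 2.7% of all genes called lower, median log2 fold change −0.71). It was 1 without shNRP1#5 replicate 2 and 9 with the compared groups fitted alone. HLA-B had 111, 89.5 and 108 CPM in shNRP1#5 against 376, 447 and 425 CPM (−2.02, SE 0.38, adjusted p = 0.00495). HLA-F had 5.53, 4.4 and 3.77 CPM against 22.1, 27.5 and 22.5 CPM (−2.40, adjusted p = 0.0127, and 0.0648 without shNRP1#5 replicate 2). All shNRP1#5 values of both genes were below all control values. The immunoproteasome genes PSMB9 and PSMB8 fell by 1.43 and 1.12, with calls lost without any of 4 samples (PSMB9, highest adjusted p = 0.111) and 1 sample (PSMB8, adjusted p = 0.0707), in both cases without shNRP1#5 replicate 2, and the peptide transporter gene TAP1 was the fifth (51.4 to 67.3 against 103 to 118 CPM, adjusted p = 0.0328, chosen after its values were seen). Reads of HLA genes can be split between near-identical members, so that the values of single HLA genes are uncertain.

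The TGF-β, bone morphogenetic protein (BMP) and ID genes gave 3 higher and 2 lower of 21 (23.8% called, beside 5.94% of all genes, median log2 fold change 0.18). There were 2 called genes without shNRP1#5 replicate 2 or shNT replicate 1. Besides TGFBR2, FST, the activin antagonist follistatin, had 0.308, 0.808 and 2.07 CPM in shNRP1#5 against 0.0823, 0.0201 and 0.0496 CPM (4.32, adjusted p = 0.00765, with 8 counts in shNT and 3.40 without shNRP1#5 replicate 3), and TGFB3 was also higher. BMP4 rose by 3.11 (53.2, 56.9 and 38 against 6.95, 5.98 and 4.23 CPM) and LTBP2, which binds microfibrils, fell by 1.24. The BMP4 call was lost without any of 4 samples (highest adjusted p = 0.0762, without shNT replicate 3) and that of LTBP2 without any of 5 (highest adjusted p = 0.179, without shNRP1#5 replicate 2). Notch and Wnt genes gave 3 higher and none lower of 22 (13.6% called, median 0.007), with 2 called without shNRP1#5 replicate 2 or any shNT replicate and 7 with no filter. JAG2, a Notch ligand, had 13.7, 13.9 and 7.82 CPM against 1.95, 3.46 and 2.59 CPM (2.15, adjusted p = 0.00615). FZD2, a Wnt receptor, rose by 1.26 (48.7, 57 and 65.8 against 25.9, 26.8 and 19.3 CPM), with an adjusted p of 0.0595 without shNT replicate 3, and the ligand WNT5B by 1.43, a call lost without any of 4 samples (highest adjusted p = 0.109, without shNT replicate 2).

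Of p53 targets and inhibitors of cyclin-dependent kinases, 4 of 14 were higher and 2 lower (42.9% called, beside 5.94% of all genes, median log2 fold change 0.44). There were 2 calls without shNRP1#5 replicate 2 or shNT replicate 1. CDKN1C, the kinase inhibitor p57, had 9.2, 25.5 and 8.25 CPM in shNRP1#5 against 2.18, 1.77 and 0.843 CPM (3.17, adjusted p = 0.00178, and 2.45 without shNRP1#5 replicate 2). TP53INP1 and BTG2 rose by 2.60 and 1.9 although their groups overlapped, and FDXR fell by 0.94, and single samples ended each of these calls (highest adjusted p = 0.164 without shNRP1#5 replicate 2 for TP53INP1, whose rise was 3.3 without shNT replicate 2, 0.115 without shNRP1#5 replicate 1 for BTG2 and 0.182 without shNRP1#5 replicate 2 for FDXR). MDM2 was the fourth higher and TNFRSF10B the second lower gene. Cell cycle genes were mostly not called. In S-phase genes 1 of 19 was lower, MCM7, a subunit of the replicative helicase, with 154, 126 and 233 CPM against 394, 382 and 398 CPM (−1.19, adjusted p = 0.0143, lost without any of 3 samples, highest 0.0911 without shNRP1#5 replicate 2). None of 21 G2/M genes passed in edgeR or DESeq2 or had an unadjusted p under 0.05, although 20 had a negative log2 fold change (median −0.57) and 4 were called lower by edgeR with no filter on low counts. CCNB1 was at 301, 288 and 444 CPM against 475, 413 and 647 CPM, and CDC20 at 267, 246 and 513 CPM against 432, 401 and 611 CPM, each with overlapping groups.

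Hypoxia and glycolysis genes gave 1 higher and 2 lower of 22 (13.6% called, beside 5.94% of all genes, median log2 fold change −0.36), with 6 called with the compared groups fitted alone. ADM, the vasodilator adrenomedullin, had 65.5, 110 and 64.5 CPM in shNRP1#5 against 10.6, 12.6 and 10.4 CPM (2.84, SE 0.38, adjusted p = 0.000337), opposite in direction to CA9. ENO2, a glycolytic enolase, fell by 1.39, a call lost without any of 4 samples (highest adjusted p = 0.0982, without shNRP1#5 replicate 1). Of YAP and TEAD target genes 1 of 18 was higher (ANKRD1, by 3.66) and 1 lower (the kinase gene LATS2, by 0.96), and of contractile genes 2 of 17 were higher (CNN1 and CNN2, by 3.51 and 0.70) and 1 lower (FHL2, by 0.79). Single samples ended each of these 5 calls. The highest adjusted p was 0.189 for ANKRD1, 0.0907 for CNN1 and 0.142 for FHL2 without shNRP1#5 replicate 2, 0.141 for LATS2 without shNRP1#5 replicate 1 and 0.167 for CNN2 without shNT replicate 3. The log2 fold change of ANKRD1 was 2.86 without shNRP1#5 replicate 2 and 4.41 without shNT replicate 1, and that of CNN1, with 11 counts in shNT, was 5.09 without shNT replicate 3. No gene of either list was called without shNRP1#5 replicate 2 or shNT replicate 1, and no YAP and TEAD target without shNT replicate 3.

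No gene passed in edgeR's test among 21 NF-κB and cytokine genes (median log2 fold change 0.13), 23 cholesterol and fatty acid genes (0.17) and 20 unfolded protein and ATF4 genes (−0.06). At an unadjusted p under 0.05 there were 2, 4 and 2 genes, and DESeq2, another count test, called 1 in each list. With no filter on low counts edgeR called 8, 2 and 3 genes, and with the compared groups fitted alone 2 cholesterol and fatty acid genes. NFKBIA, the NF-κB inhibitor, was at 106, 121 and 74.5 CPM in shNRP1#5 against 87.9, 104 and 110 CPM in shNT. SCD, a fatty acid desaturase, was at 809, 515 and 423 CPM against 801, 922 and 304 CPM, and HSPA5, the chaperone BiP, at 747, 969 and 539 CPM against 511, 481 and 565 CPM. Of 16 genes of the RNA interference machinery 1 was lower (6.25% called, beside 5.94% of all genes), AGO1, an Argonaute protein with 2 matches in its 3′ UTR. AGO1 had 20.1, 13.3 and 26.7 CPM against 46.3, 43.7 and 50.4 CPM, without overlap (−1.23, SE 0.23, adjusted p = 0.00477). Of 6 tested markers of other cells, CDH5 of endothelium was higher (0.704, 1.35 and 0.692 CPM, with 3 counts in shNT, ratio 50.1, counting interval 16.8 to 246) and CD68 and KRT6A were lower, the last with an adjusted p up to 0.2 and a log2 fold change of −2.36 without shNT replicate 3.

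**Figure D3:**
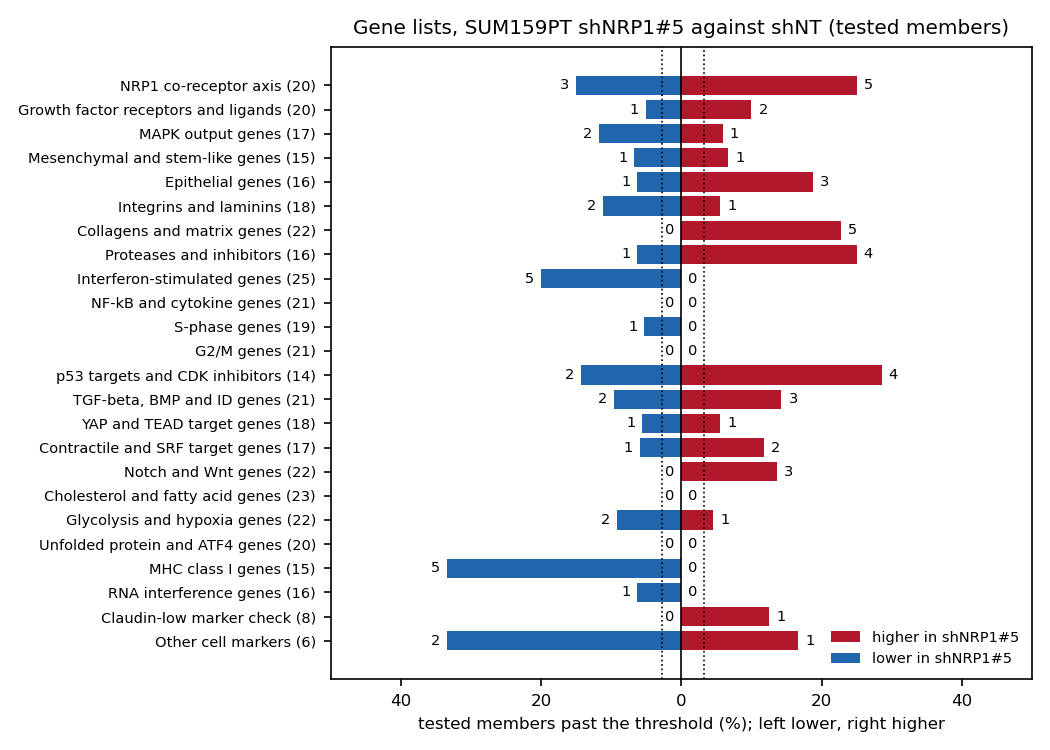
Percentage of the tested members of each gene list that were lower (left, blue) or higher (right, red) in SUM159PT shNRP1#5 than in shNT, with the number of members tested in brackets and the number called beside each bar. The dotted lines mark the percentages over all genes, 2.7% lower and 3.24% higher, and the interferon-stimulated and MHC class I lists have bars to the left alone, with 5 members each.

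The match to the seed of the complement was then described over all protein-coding genes, a choice made after the data had been seen. Of the 14391 protein-coding genes tested, 14128 (98.2%) had a 3′ UTR in their canonical transcript, and 1285 of these (9.1%) held GCACTTA at least once on the transcript strand. Among the 1285 genes with a match, 110 (8.56%) were lower and 27 (2.1%) higher with shNRP1#5. Among the 12843 without one, 401 (3.12%) were lower and 490 (3.82%) higher. The median log2 fold change was −0.177 with a match and 0.00137 without. Read the other way, 21.5% of the lower, 5.22% of the higher and 8.76% of the uncalled genes held a match. The percentage lower was above that of genes without a match under every alternative, from 3.99% against 1.05% without shNRP1#5 replicate 2 to 11.4% against 4.38% with the replicate number as a block. It was 5.22% without shNRP1#5 replicate 1, 4.99% without shNT replicate 1, and 5.69% without either of the other shNT replicates.

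Genes with a match had longer 3′ UTRs (median 3374 bases, against 1120 bases without), so that genes were also compared within tertiles of the 3′ UTR length, divided at 693 and 2086 bases. The percentage lower was 18.2% with against 3.08% without a match in the shortest tertile, where 66 genes held one, 16.1% against 3.18% in the middle tertile and 5.71% against 3.11% in the longest tertile. By the number of matches, 3.12% of genes with none, 7.87% with 1 and 14.2% of the 141 genes with 2 or more were lower, although the last group also had the longest 3′ UTRs. In genes without a 3′ UTR match, a match in the coding sequence went with 4.72% lower against 3.04% without. Genes with a coding match also had longer coding sequences (median 2296.5 against 1350 bases), and they were not compared within classes of that length.

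Of the 26 windows of 7 bases along the target site and its complement, the one at bases 2 to 8 of the complement had the highest percentage of lower genes (8.56%). The window at bases 3 to 9, which shares 6 bases with it, followed with 6.5%, and the window at bases 4 to 10 with 5.09%. The other windows of the complement had 2.78 to 4.58% and the 13 windows of the site itself 2.94 to 3.95%. Overlapping windows share genes, and a match is no proof of a bound site. With siNRP1#5, which has its own siNT control, the same window gave 26.9% lower with against 8.9% without a match and medians of −0.447 and 0.0806. With shNRP1#3, of another sequence but measured against the same shNT samples, it gave 1.4% against 1.46% (1.06% of all genes tested were lower) and medians of 0.0538 and −0.0222. By tertile of 3′ UTR length, from shortest to longest, shNRP1#3 gave 1.52% against 1.14%, 1.1% against 1.78% and 1.48% against 1.46%. With shNRP1#5 in MDA-MB-231 the window gave 3.19% against 3.1%, and by tertile 3.03% against 2.88%, 4.4% against 3.31% and 2.85% against 3.11%. In HS578T it gave 4.12% against 3.78%. The tertiles there gave 18.2% against 5.77% (shortest), 9.89% against 3.11% (middle) and 1.48% against 2.1% (longest, 946 of the 1285 genes with a match). Over all 3′ UTR lengths the median log2 fold change in HS578T was higher with a match than without (0.163 against 0.042). Within each tertile it was lower with a match, at −0.372 against −0.177 (shortest), −0.0719 against 0.0642 (middle) and 0.254 against 0.271 (longest).

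**Figure D4:**
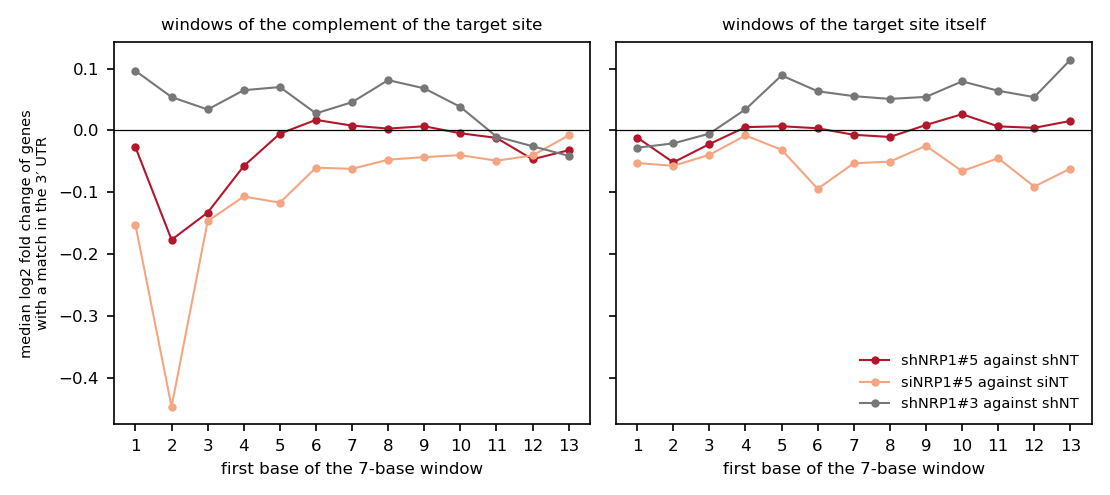
Median log2 fold change (y axis) of SUM159PT genes whose 3′ UTR matches a 7-base window of the complement of the target site (left) or of the site itself (right), by the first base of the window (x axis), for shNRP1#5, siNRP1#5 and shNRP1#3. For shNRP1#5 and siNRP1#5 the lowest point is the window that starts at base 2 of the complement, with −0.177 and −0.447, whereas the medians of shNRP1#3 there are above 0 (0.0538).

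The siRNA of the same bases was compared with the hairpin, from which it also differed in harvest time, selection, control samples, number of samples and depth of the NRP1 fall, so that delivery cannot be told apart from these. NRP1 was at 7.5 and 13.9 CPM in the 2 siNRP1#5 samples against 253, 150 and 237 CPM in siNT (log2 fold change −4.31). The fall with shNRP1#5 was the smaller by 2.01 on the log2 scale (adjusted p = 0.0315, interaction in the same fit). Of the 541 genes lower with shNRP1#5, 268 (49.5%) were also lower with siNRP1#5, beside 8.89% of all genes tested. They were 15% of the 1784 genes lower with siNRP1#5, beside the 2.7% of all genes that were lower with shNRP1#5. Of the 651 higher genes, 166 (25.5%) were also higher with siNRP1#5, beside 9% of all genes tested. They were 9.19% of the 1806 genes higher with siNRP1#5, beside the 3.24% of all genes that were higher with shNRP1#5. Calls in opposite directions numbered 3 among the lower and 13 among the higher genes. TGFBR2 was at 42.7 and 71.9 CPM against 554, 353 and 627 CPM with siRNA (−3.16), next to −3.04 with the hairpin. LIN28A was at 0.762 and 2.38 CPM and SPSB4 at 0.191 and 4.26 CPM in siNRP1#5, lower than the 11.3 to 63.5 CPM of the hairpin samples, with control means of 0 and 0.00797 CPM in siNT. Of the protein-coding genes lower with both, 89 of 255 (34.9%) held a 3′ UTR match, of those lower with the hairpin alone 21 of 256 (8.2%), of those lower with the siRNA alone 257 of 1234 (20.8%), and of those lower with neither 7.41%. Over all genes the response to the hairpin and to the siRNA differed by the interaction test for 503 genes (2.51%), 310 with the larger log2 fold change in the hairpin and 193 with the smaller. That count ranged from 51 without shNT replicate 1 to 939 without shNRP1#5 replicate 3, with 109, 160, 312 and 93 without shNRP1#5 replicates 1 and 2 and shNT replicates 2 and 3.

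The same hairpin in the other claudin-low lines lowered NRP1 by 1.06 on the log2 scale in MDA-MB-231 and by 2.08 in HS578T. The fall in SUM159PT was deeper than in MDA-MB-231 (difference −1.28, adjusted p = 0.0303), and no difference from HS578T was detected (adjusted p = 0.818). Of the genes lower in SUM159PT, 68 (12.6%) were also lower in MDA-MB-231 and 169 (31.2%) in HS578T. Of the genes tested in both fits, 2.3% and 2.88% were lower in those lines (2.11% and 2.61% of all genes tested in the fit of all lines). The shared genes were 14.8% and 29.3% of the genes lower in those lines, beside the 2.7% of genes lower with shNRP1#5 in SUM159PT. Of the higher genes 19 (2.92%) and 64 (9.83%) were shared, beside 0.882% and 2.61% of genes higher in those lines (0.897% and 2.29% of all genes tested). The shared genes were 10.7% and 12.2% of the genes higher in those lines, beside the 3.24% of genes higher with shNRP1#5 in SUM159PT. Of the genes higher in SUM159PT, 13 (2%) were lower in MDA-MB-231 and 2 (0.307%) in HS578T, beside 2.3% and 2.88% of genes. Of the genes lower in SUM159PT, 2 (0.37%) were higher in each of the lines, beside 0.882% and 2.61% of genes. UCA1 was higher in all 3 lines, with 76.3, 40.7 and 35.3 CPM against 3.9, 4.98 and 3.78 CPM in MDA-MB-231. The hairpin effect in SUM159PT differed from that in MDA-MB-231 for 772 of 23416 genes (3.3%, and 514 and 488 without shNRP1#5 replicate 2 and shNT replicate 3) and from that in HS578T for 263 (1.12%). The second count was 164 without shNRP1#5 replicate 1 or 2, 438 without shNRP1#5 replicate 3, and 156 and 147 without shNT replicates 1 and 3.

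All 4 comparisons of sequence #5 named here, the SUM159PT siRNA and the hairpin in 3 lines, called 22 genes lower and 2 higher in common, of 20067 genes tested in all 4. Apart from NRP1, the lower genes included CIITA, HLA-F and HLA-DMA of antigen presentation, the interferon-stimulated genes MX2, ISG20 and TRIM22, and CYBRD1, PIGS and MTMR4. Of these 22 genes, 7 (31.8%) held a 3′ UTR match, among them CYBRD1, PIGS and MTMR4. The share was 9.1% over all protein-coding genes with a 3′ UTR. It was 34.9% among those lower with both the hairpin and the siRNA in SUM159PT, as the 22 had to be. The 2 higher genes were IL6R, the receptor of interleukin 6, with log2 fold changes of 1.52 here and 1.04 to 1.50 in the other comparisons, and HSD17B10, a mitochondrial dehydrogenase that is also a subunit of mitochondrial RNase P, with 1.36 here and 0.74 to 1.62 in the others. With shNRP1#3, which shares the shNT samples, the log2 fold changes of IL6R, HSD17B10 and CIITA were 1.02, 1.16 and −2.02. Those of MTMR4 and HLA-F were −0.31 and 0.61.

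The 2 hairpins in SUM159PT share the shNT control and were compared directly. NRP1 was lower in shNRP1#5 than in shNRP1#3, which had 129, 82 and 75.6 CPM, by 0.99 on the log2 scale (adjusted p = 0.0461). Of all genes tested, 985 (4.91%) were higher and 762 (3.8%) lower in shNRP1#5 than in shNRP1#3 (8.71% called, 1120 without shNRP1#5 replicate 1 and 1061 without replicate 2). TGFBR2 was at 379, 376 and 248 CPM in shNRP1#3, as high as in shNT, and 3.33 lower on the log2 scale in shNRP1#5 (adjusted p = 4.53e-06). COL1A2 was at 0.0928, 0.114 and 0.222 CPM and LIN28A at 0 in all 3 shNRP1#3 samples. TIMP1 was at 520, 554 and 620 CPM, between the 2 other groups, and 0.81 lower in shNRP1#5 than in shNRP1#3 (adjusted p = 0.0169). CLDN1 was at 47.7, 69.9 and 33.2 CPM in shNRP1#3, also above shNT, and its difference between the hairpins did not pass (−0.93, adjusted p = 0.259).

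**Figure D5:**
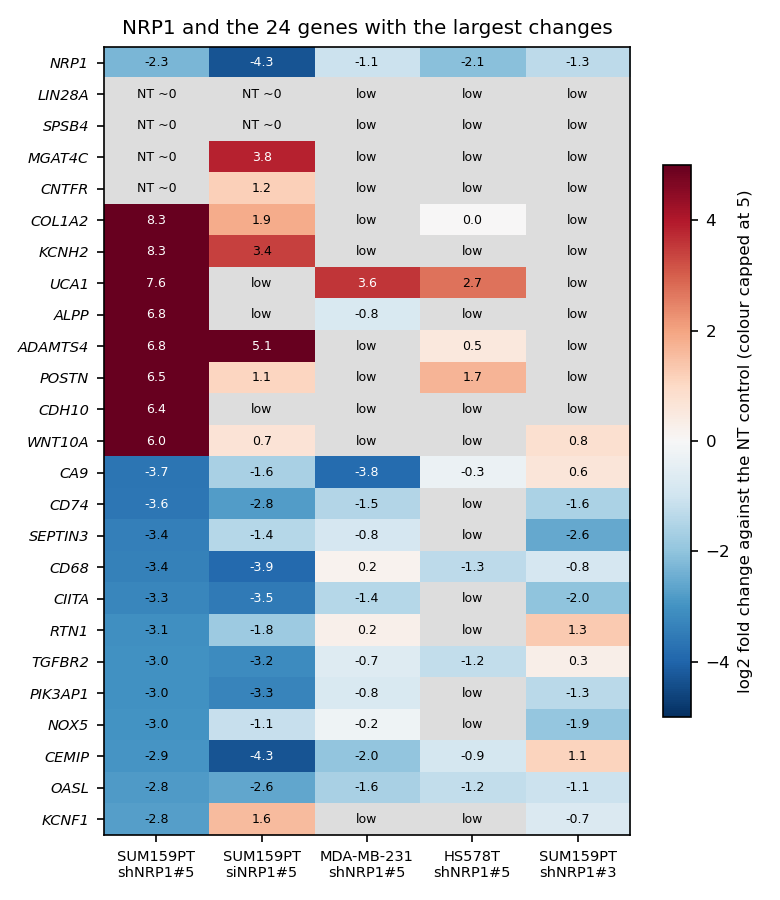
Log2 fold change of NRP1 and of the 24 genes with the largest changes in SUM159PT shNRP1#5, beside siNRP1#5, the same hairpin in MDA-MB-231 and HS578T, and shNRP1#3, each against its own NT control (shared by the 2 SUM159PT hairpins). Grey cells marked low had means under 1 CPM in both groups and those marked NT ~0 had an NT control at or near 0, so that no fold is given. NRP1 is negative in every column, from −4.31 with siNRP1#5 to −1.06 in MDA-MB-231.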

How the data were processed

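Poly(A) RNA was sequenced in paired-end mode from stranded libraries. Per the labels and the study's methods, the authors trimmed the reads (Trim Galore 0.6.5, checked with FastQC 0.11.9), aligned them with STAR 2.7.2b to GRCh38 and quantified them with RSEM 1.3.3. The deposited gene table holds RSEM expected counts, which were rounded to whole numbers here. The deposited transcript tables hold TPM and isoform percent values as the authors made them. Counts of genes that share reads are estimates of their split.

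Of 78894 genes, 20067 passed edgeR's filterByExpr in the 17 SUM159PT samples (6 groups), which share 1 spread estimate. The fit was edgeR 4.0.16 quasi-likelihood (TMM, robust, R 4.3.3) with Benjamini-Hochberg adjustment over all genes tested and a threshold of 0.05. Differences between lines came from interactions in a fit of all 52 samples (18 groups, 23416 genes). CPM used TMM factors. Replicates were consecutive passages. Sample groups came from the labels. The 12 genes named in each direction had the largest log2 fold changes among called genes with non-overlapping groups and at least 5 CPM in the higher group, and up to 4 called members of each list were named. The members and lists were chosen with earlier results of these data known. Positions and 3′ UTRs came from GENCODE 44, which matched 61463 of the gene identifiers, and microRNA sequences from RefSeq. The totals of 39922411 to 62014725 counts per sample set the counting error, and a floor of 3 counts was used where a group was at 0. Alternatives were RLE scaling, no filter, DESeq2 1.42.0, a replicate block, only the groups compared, and leaving out each sample. The script was tested on simulated data. Some list members are not reported here.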

Additional observations from a re-analysis of the deposited data

Results flagged for a closer look

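The effect of sequence #5 on NRP1 and on the genes with the largest changes was tested for a difference between SUM159PT and each of the other lines, and between hairpin and siRNA in SUM159PT, with interaction terms in edgeR's quasi-likelihood test over all genes, for 21 genes in each case. Every value is the log2 fold change with the SUM159PT hairpin minus that in the other comparison, and each passed an adjusted p of 0.05. Genes with 3 or fewer counts in the shNT group were left out. Apart from NRP1, the genes were picked for their large changes with the SUM159PT hairpin, whose effect enters every comparison. The choice itself therefore favours differences, and the counts below do not measure how far the comparisons differ over all genes.

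Between SUM159PT and MDA-MB-231, 13 of the 21 genes differed, beside 3.3% of all genes tested. The larger values in SUM159PT were those of COL1A2 (9.29), KCNH2 (8.96), ALPP (7.53), WNT10A (6.38) and UCA1 (4), the last being higher in both lines. The lower values were those of CD68 (−3.56), RTN1 (−3.35), KCNF1 (−3.21), NOX5 (−2.82), SEPTIN3 (−2.61), TGFBR2 (−2.41), PIK3AP1 (−2.28) and NRP1 itself (−1.28). Between SUM159PT and HS578T, 9 of the 21 genes differed, beside 1.12% of all genes tested. They were COL1A2 (8.29), WNT10A (6.96), ALPP (6.46), ADAMTS4 (6.22), CDH10 (5.56), UCA1 (4.89), NOX5 (−4.08), CD74 (−3.98) and TGFBR2 (−1.83). Several of these genes were at or near 0 in the other line, and the size of a fitted difference then depends on the fit.

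Between the hairpin and the siRNA, 6 of the 21 genes differed, beside 2.51% of all genes tested. COL1A2 (6.48), POSTN (5.39), WNT10A (5.30) and KCNH2 (4.87) had the larger value with the hairpin and KCNF1 (−4.33) the smaller. NRP1 differed by 2.01, since it fell less with the hairpin than with the siRNA.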

How the results depend on the processing

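The number of genes changed by shNRP1#5 in SUM159PT was 1192, 2046 with no filter on low counts and 464 to 1221 without single samples. The count of genes that differed between hairpin and siRNA was 503, 1457 with no filter, 1543 with DESeq2, 1016 with the replicate block and 51 to 939 without single samples. Between the hairpins the count of 1747 ranged from 1061 to 1713 without single samples. Between SUM159PT and MDA-MB-231 it was 772, 1236 with no filter and 488 to 1096 without single samples, and between SUM159PT and HS578T it was 263, 866 with no filter, 496 with DESeq2 and 147 to 438 without single samples. The causes were not tested. NRP1 kept its direction and call throughout, and its transmembrane and soluble transcripts stayed at 21.3 to 24.2% and 11.6 to 20.5% of shNT without single samples. Of 80 other named genes called, 45 were called under each of the 11 settings that gave them an adjusted p. LUM and HLA-DQB1, which are among the 45, had an adjusted p under 10 of the settings. The only values that changed sign belonged to genes not called: NFKBIA (0.0052 with RLE, 0.0020 with DESeq2, −0.15 to 0.17 without single samples, including 0.024 and 0.067 without shNT replicates 2 and 3), and, without single samples, SCD (−0.56 to 0.077), ACLY (−0.29 to 0.054), HSP90B1 (−0.11 to 0.33) and HLA-DOB (−0.29 to 0.28). Deviations from the group means correlated at −0.00282, −0.00177 and 0.452 for replicate numbers 1, 2 and 3. Between samples of unlike number they correlated at up to 0.476 (shNRP1#5 replicate 1 with shNT replicate 2), so that no consistent pairing by number was seen. The replicate block gave 1565 changed genes. Without single samples the fold of 28 named genes moved by over 1.5 times. Depth limits genes at few counts: folds of genes with 3 or fewer shNT counts were given as bounds or counting intervals, and the fitted folds of genes with 7 to 12 depend on the fit.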

Other observations

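MHC class II genes, whose products present peptides to helper T cells, were at low levels in SUM159PT shNT, and some of them were lower with shNRP1#5. The list was chosen after values had been seen and gets no test of its own. Of 9 members tested, 5 were lower and none higher (55.6% called, beside 2.7% of all genes called lower), with a median log2 fold change of −2.55. CIITA and CD74, already named among the 12 largest falls, count among the 5. The count was 4 without any of 4 single samples and 7 with no filter or with DESeq2. HLA-DPA1, the α chain of HLA-DP, had 0.176, 0.301 and 0.143 CPM in shNRP1#5 against 3.25, 4.25 and 3.73 CPM in shNT (−4.14, SE 0.33, adjusted p = 5.2e-06, edgeR). HLA-DMA, which helps to load peptides, had 2.38, 2.12 and 1.05 CPM against 3.89, 5.76 and 3.24 CPM (−1.21), a call lost without any of 4 samples (highest adjusted p = 0.128, without shNT replicate 2). Neither gene's groups overlapped. HLA-DQB1, CIITA and CD74 were the other lower members, whereas HLA-DRA did not pass (0.066, 0.301 and 0.0715 against 0.329, 0.504 and 0.463 CPM, adjusted p = 0.221). HLA-DPA1 was also lower with siNRP1#5 (−2.41) and in MDA-MB-231 (−2.03), and with shNRP1#3, which shares the shNT samples, it had 0.758, 0.823 and 0.917 CPM (−2.17). Of the same 9 members, 8 were lower with siNRP1#5, 5 in MDA-MB-231 and 2 in HS578T, where 8.89%, 2.11% and 2.61% of all genes tested were lower. HLA-DOB was not called (log2 fold change 0.07, adjusted p = 0.96), nor were HLA-DPB1 and HLA-DMB.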
